A study of Homo sapiens with 10 samples.

Results

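Described here are 37 genes that copy DNA or supply its building blocks, found by symbol from a list of names. The list used no measured threshold but was chosen with earlier results of these data known, so shares beside all tested genes are descriptive. All 37 were found among the 25593 entries of each file, and all 37 were among the 14813 entries that passed the filter of at least 1 FPKM (fragments scaled to transcript length and library size) in at least 2 libraries. Expression came from RNA sequencing of 10 libraries, all of U2OS-derived lines. U2OS is an established line from a human osteosarcoma. The groups were a line labelled p53 KO given SET siRNA (n = 2) or control siRNA (n = 2), and a control CRISPR line labelled p53 WT given SET siRNA (n = 3) or control siRNA (n = 3), each for 96 h. SET is a histone chaperone that also inhibits protein phosphatase 2A and binds p53. Both lines went through CRISPR/Cas9 transfection and selection, and each genotype is 1 line, so p53 status and other differences between the lines cannot be told apart. The design text calls the CRISPR construct SET-specific while describing a p53 knockout, so groups follow the sample titles and the lines are called KO-labelled and WT-labelled. No siRNA sequence is stated, and effects of the siRNA on other targets were not assessed. Libraries of a group are named biological replicates, with nothing on whether they were separate cultures, so p-values measure only the spread between these libraries.

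Before a cell divides, the origin recognition complex, CDC6 and CDT1 load the MCM helicase onto DNA, a step called licensing. CDC45 and the GINS complex then turn the MCM ring into the active helicase, polymerases extend the new strands behind a sliding clamp, PCNA, and ribonucleotide reductase with thymidylate synthase and thymidine kinase supplies deoxynucleotides. Many of these genes are transcribed ahead of S phase under E2F factors, and p53 is known to lower their transcription through the cyclin-dependent kinase inhibitor p21, which CDKN1A encodes.

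Promoter windows of the members are shown first, because many of the members are genes known to be under E2F control. Their shares of letters are for that reason a description and not a test. RefSeq (GRCh38.p14) gave a window of 300 bases, 250 before and 50 from the start on, for 33 of the 37 members. E2F-type letters were searched as TTCCCGC or TTCGCGC or TTGGCGC or TTGCCGC on either strand, counting overlapping matches as 1. They occurred in 25 of the 33 windows, 75.8%, against 20.7% of 9539 windows of genes that passed the filter and 13.0% of all 35116 windows. At least 2 separate matches stood in 9 member windows, 27.3%, against 2.98% of those of filtered genes. The letters CCAAT were in 22 member windows, 66.7%, against 36.6% of filtered genes, and TTTGAA was in 1, against 9.49%. Of the members with a window, E2F-type letters were in 21 of 28 that fell with SET siRNA in WT-labelled cells, 1 of 1 that rose and 3 of 4 that were not called. A match describes letters and is not a binding site.

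The windows below belong to the member of each subclass with the largest difference between the lines in response to SET siRNA, to POLE2, the only one that rose in WT-labelled cells, and to PCNA, whose change was not called in either line. Capitals mark the E2F-type letters. CDT1 has 2 matches, UHRF1 2, MCM2 1 in a stretch that reads the same on both strands, POLE2 1 and PCNA 1, while neither FEN1 nor TK1 has one in this window. The first base of the match lies at -35 and -23 from the start in CDT1, -104 and -14 in UHRF1, 4 in MCM2, -5 in POLE2 and -59 in PCNA.
CDT1, chr16:88803539-88803838, plus strand: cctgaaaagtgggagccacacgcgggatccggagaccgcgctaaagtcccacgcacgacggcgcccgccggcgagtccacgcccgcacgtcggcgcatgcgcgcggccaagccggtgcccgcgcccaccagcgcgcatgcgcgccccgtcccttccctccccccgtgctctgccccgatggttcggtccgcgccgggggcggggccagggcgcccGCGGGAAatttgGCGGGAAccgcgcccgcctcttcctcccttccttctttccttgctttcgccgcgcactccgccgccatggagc
MCM2, chr3:127598161-127598460, plus strand: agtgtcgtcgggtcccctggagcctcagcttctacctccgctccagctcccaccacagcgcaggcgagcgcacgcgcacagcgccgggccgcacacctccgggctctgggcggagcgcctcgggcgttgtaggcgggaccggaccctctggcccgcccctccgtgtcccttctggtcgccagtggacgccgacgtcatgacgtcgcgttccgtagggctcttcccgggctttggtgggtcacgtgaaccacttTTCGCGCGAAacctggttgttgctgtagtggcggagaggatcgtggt
UHRF1, chr19:4909251-4909550, plus strand: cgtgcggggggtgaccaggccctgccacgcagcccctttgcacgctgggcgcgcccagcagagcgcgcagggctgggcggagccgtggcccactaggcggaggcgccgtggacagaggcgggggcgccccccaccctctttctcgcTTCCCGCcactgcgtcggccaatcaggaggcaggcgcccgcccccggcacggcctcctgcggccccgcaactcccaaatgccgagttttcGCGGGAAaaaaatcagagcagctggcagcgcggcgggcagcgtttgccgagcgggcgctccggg
FEN1, chr11:61792661-61792960, plus strand: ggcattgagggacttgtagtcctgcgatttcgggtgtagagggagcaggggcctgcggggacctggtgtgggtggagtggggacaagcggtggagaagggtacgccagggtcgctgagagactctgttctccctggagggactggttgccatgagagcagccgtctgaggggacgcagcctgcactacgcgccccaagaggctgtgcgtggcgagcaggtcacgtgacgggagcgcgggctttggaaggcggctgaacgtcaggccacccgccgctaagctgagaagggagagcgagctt
TK1, chr17:78187155-78187454, minus strand: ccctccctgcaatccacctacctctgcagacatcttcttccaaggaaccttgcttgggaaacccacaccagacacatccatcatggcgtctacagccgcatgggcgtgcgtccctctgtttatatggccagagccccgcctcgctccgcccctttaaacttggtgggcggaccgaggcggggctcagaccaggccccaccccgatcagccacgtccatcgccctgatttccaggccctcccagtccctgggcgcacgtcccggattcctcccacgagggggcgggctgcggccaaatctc
POLE2, chr14:49688165-49688464, minus strand: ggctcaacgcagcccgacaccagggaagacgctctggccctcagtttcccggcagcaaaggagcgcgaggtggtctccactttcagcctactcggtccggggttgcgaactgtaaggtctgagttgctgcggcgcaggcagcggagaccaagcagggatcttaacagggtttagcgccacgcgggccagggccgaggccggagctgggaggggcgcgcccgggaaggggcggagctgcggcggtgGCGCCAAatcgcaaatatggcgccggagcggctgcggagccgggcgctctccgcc
PCNA, chr20:5126573-5126872, minus strand: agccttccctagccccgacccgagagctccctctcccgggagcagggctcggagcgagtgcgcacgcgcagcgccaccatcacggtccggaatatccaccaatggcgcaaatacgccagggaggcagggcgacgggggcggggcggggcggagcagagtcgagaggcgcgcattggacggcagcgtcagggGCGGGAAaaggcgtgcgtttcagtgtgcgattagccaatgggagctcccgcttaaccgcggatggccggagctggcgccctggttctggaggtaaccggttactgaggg

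Depth was not stated, and fragment numbers implied by the authors' FPKM intervals were whole within 0.05 for only 53.9 to 57.7% of low genes, so no count test was run. Relative depth read from those intervals ran from 0.85 to 1.295 of the median, the second KO-labelled SET siRNA library being the deepest. The half-width of the authors' interval had a median over the members of 4.67 to 6.82% of FPKM per library, and 11.38% at the most. Libraries of 1 group differed by a median of 1.04 to 1.08 times over the members. The widest pair was KO control, where CDT1, MCM5 and TK1 differed by over 1.2 times. SET itself averaged 14.9 ± 0.0302 FPKM in KO-labelled cells with SET siRNA against 164 ± 8.22 with control siRNA (SD, n = 2 each), and 12.5 ± 0.656 against 124 ± 2.64 in WT-labelled cells (n = 3 each), with limma adjusted p of 5.14e-09 and 1.26e-09. Of the line's expected markers, VIM, COL1A1, SPARC and RUNX2 were present at 5.24 FPKM or more in every library, COL1A2 was at most 0.647 and of the mature osteoblast genes ALPL was at 1.24 to 3.55 and IBSP and SP7 at most 0.023. Blood and endothelial markers stayed at or below 0.197, and the epithelial genes EPCAM and CDH1 reached 4.75 and 1.68. Several of these markers moved with SET siRNA in both lines. SPARC changed by -1.44 in KO-labelled and -1.45 in WT-labelled cells, COL1A1 by -0.78 and -0.89, VIM by -0.20 and -0.42, RUNX2 by -0.45 and -0.38, ALPL by -0.43 and -0.55 and EPCAM by 0.91 and 0.84, all called by limma. CDH1 changed by 0.15 and 0.26, the second called. The interaction was not called for any of these 7 genes (adjusted p = 0.0853 to 0.934), and their part in the replication gene values was not tested.

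With SET siRNA most replication genes were lower than with control siRNA in WT-labelled cells, and few were in KO-labelled cells. In KO-labelled cells 15 of the 37 rose and 2 fell, where 19.8% of all tested genes rose and 17.9% fell. In WT-labelled cells 1 rose and 32 fell, or 86.5% of the members, where 30.8% and 24.0% of all tested genes did. The median log2 change was 0.14 in KO-labelled cells and -0.51 in WT-labelled cells, beside 0.02 and 0.04 over all tested genes. These are changes of log2(FPKM + 1), tested with limma across all 14813 genes and called at a Benjamini-Hochberg adjusted p below 0.05. In bulk RNA, fewer cells in S phase and less RNA per cell cannot be told apart.

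**Figure D1:**
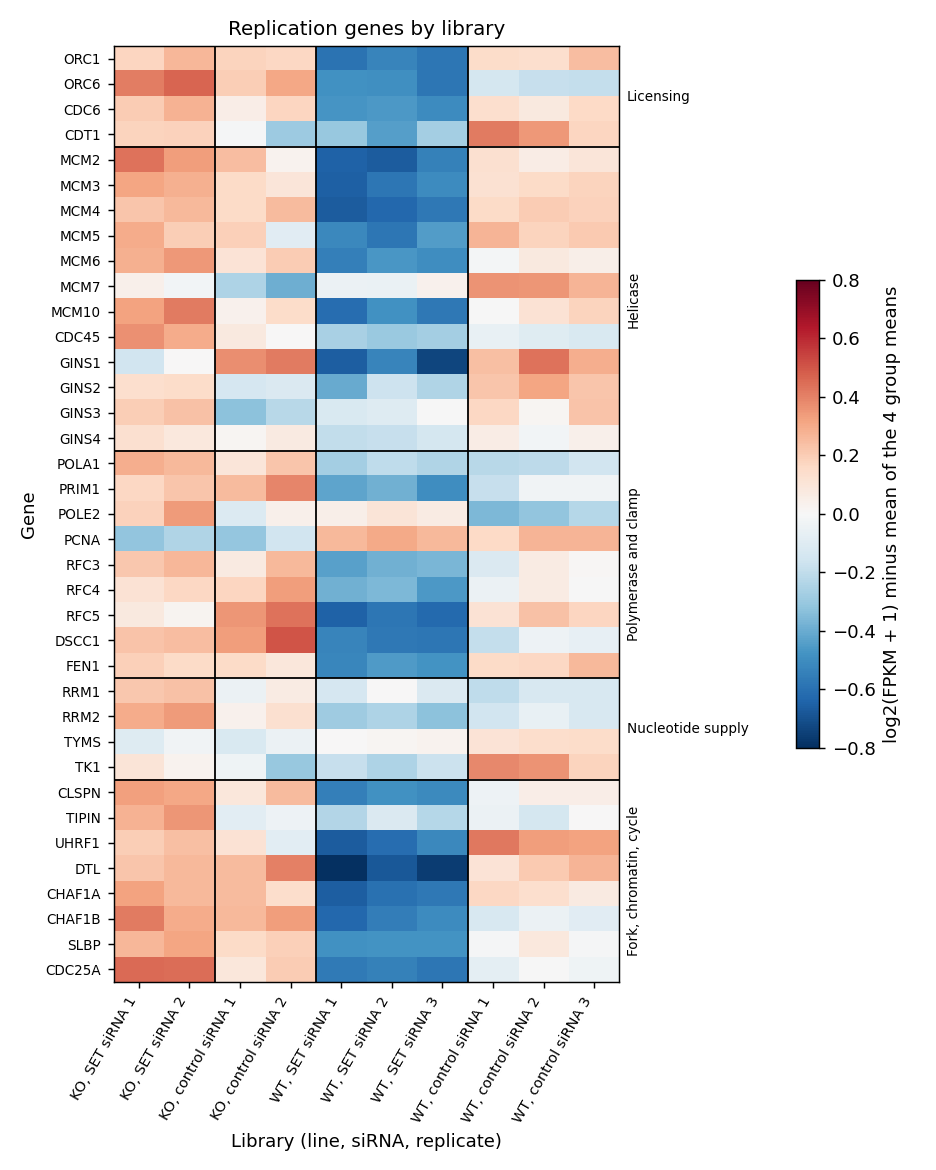
Each row is 1 of the 37 genes and each column 1 library, and the colour is log2(FPKM + 1) minus the mean of that gene's 4 group means. The 3 WT-labelled SET siRNA columns are blue in most rows, with the lowest mean of the 4 groups for 31 genes, while POLE2, PCNA, TYMS and MCM7 are pale or red there.

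Each library held the same picture. The median of the centred values over the 37 members was 0.22 and 0.26 in the KO-labelled SET siRNA libraries, against 0.10 and 0.14 in KO control libraries. It was -0.48, -0.46 and -0.48 in the WT-labelled SET siRNA libraries, against 0.11, 0.08 and 0.10 in WT control libraries. The WT-labelled SET siRNA group stood below every other library, and the other 3 groups lay close together. It had the lowest mean of the 4 groups for 31 of the 37 members, and the KO-labelled SET siRNA group had the highest for 23. The WT SET siRNA libraries all lay below the WT control libraries for 32 members, where 28.6% of tested genes did so, and the KO SET siRNA libraries all lay above the KO controls for 25, where 36.0% did.

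The response itself differed between the lines for 30 of the 37 members. The interaction, the KO-labelled response minus the WT-labelled response, was positive and called for 81.1% of the members, beside 8.6% of all tested genes. Negative interactions were called by limma for 0 members, and for 0 at an unadjusted p below 0.05, beside 10.5% of tested genes called. The median interaction was 0.68 over the members and -0.03 over all tested genes. The 7 members not called were POLA1, PRIM1, POLE2, PCNA, DSCC1, RRM1 and TYMS. Leaving out each library in turn gave 26 to 31 positive calls, the lowest without KO SET siRNA library 2.

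**Figure D2:**
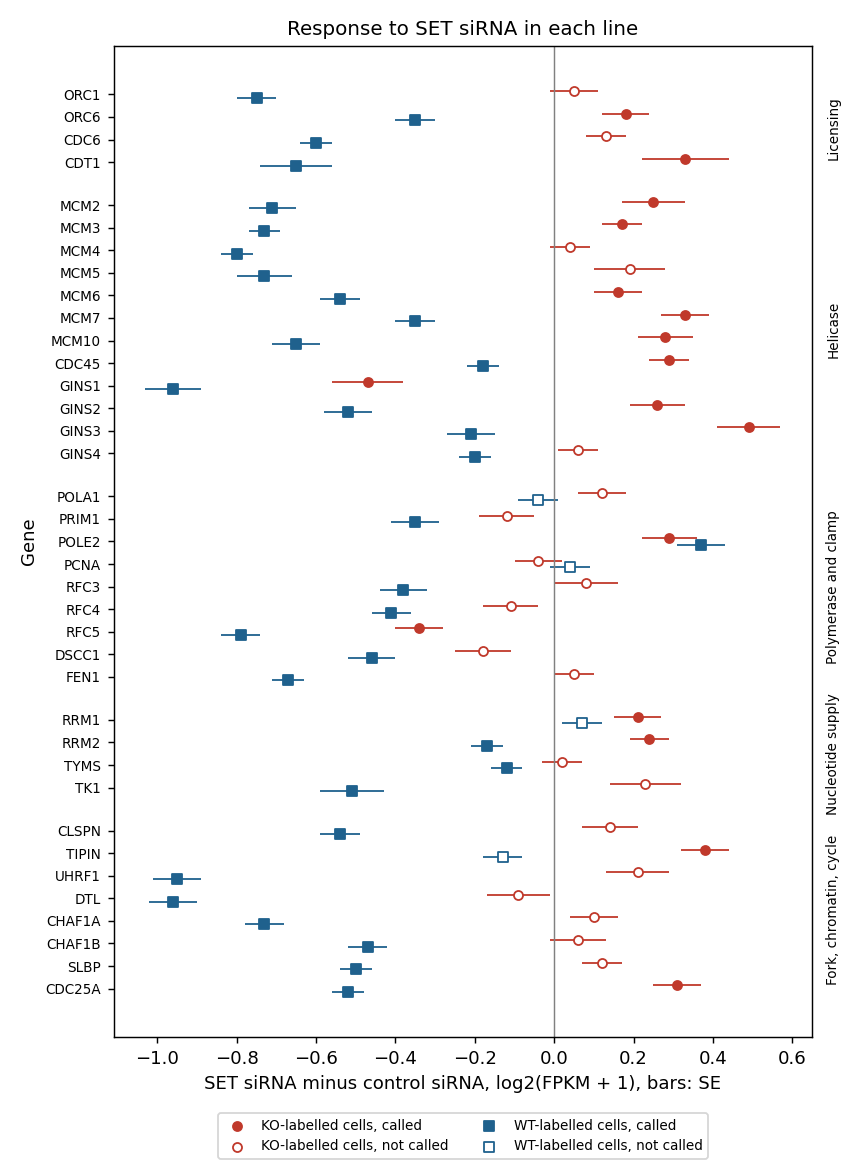
Points give the change of log2(FPKM + 1) with SET siRNA for each gene, circles for KO-labelled and squares for WT-labelled cells, with bars of 1 SE and filled symbols where limma called the change. Most squares lie left of 0 and most circles at or right of it, while GINS1 and RFC5 have called circles left of 0 and POLE2 has a called square right of it, at 0.37.

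Licensing genes, which prepare origins, all fell in WT-labelled cells, where 24.0% of all tested genes did. ORC1, the largest subunit of the origin recognition complex (chromosome 1, 52838501 to 52870143 as the files give it, on a build the sources do not state), was at 19.0 and 20.4 FPKM in KO-labelled cells with SET siRNA, against 19.1 and 18.9 with control siRNA. In WT-labelled cells it was at 10.8, 11.3 and 10.9 FPKM with SET siRNA, against 18.7, 18.5 and 20.1 with control siRNA. The KO groups overlapped, whereas every WT SET siRNA library was below every WT control. The log2 value of ORC1 fell by 0.75 ± 0.05 (SE) in WT-labelled cells (adjusted p = 2.91e-06), and its change in KO-labelled cells was 0.05 ± 0.06 (adjusted p = 0.536). 

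CDT1, the loader of the MCM ring, had the largest interaction of the licensing genes. It was at 31.0 and 31.1 FPKM in KO-labelled cells with SET siRNA against 27.1 and 22.1 with control siRNA, and at 21.9, 19.8 and 22.4 FPKM in WT-labelled cells with SET siRNA against 36.7, 34.9 and 30.8 with control siRNA. Both pairs of groups were apart, in opposite directions. The interaction was 0.98 ± 0.14 (adjusted p = 0.00239), made of a rise of 0.33 in KO-labelled cells (adjusted p = 0.0365) and a fall of 0.65 in WT-labelled cells (adjusted p = 0.000225). The KO rise lost its call without KO SET siRNA library 1 or 2 (adjusted p = 0.121 and 0.12), KO control library 2 (0.215), WT SET siRNA library 1 (0.0513) or WT control library 2 (0.0506). The value itself was 0.19 without KO control library 2 and 0.33 without any of the others named. The call was also lost with no filter (0.103), median-of-ratios scaling (0.0518) and only the KO libraries (0.0833).

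CDC6, an ATPase that works with CDT1 in loading the ring, was at 52.9 and 55.7 FPKM in KO-labelled cells with SET siRNA against 47.7 and 51.7 with control siRNA. In WT-labelled cells it was at 32.8, 33.1 and 32.1 with SET siRNA against 50.4, 48.5 and 51.4 with control siRNA. The WT groups were far apart and the KO groups close but separate. CDC6 fell by 0.60 in WT-labelled cells (adjusted p = 6.48e-06), and its KO change of 0.13 was not called (adjusted p = 0.0951). ORC6, the smallest origin recognition subunit, fell by 0.35 in WT-labelled cells and rose by 0.18 in KO-labelled cells. That rise (adjusted p = 0.0271) lost its call without KO SET siRNA library 1 (0.0669) or 2 (0.142) or KO control library 1 (0.108).

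All 12 genes of the helicase fell in WT-labelled cells with SET siRNA, by 0.18 for CDC45 to 0.96 for GINS1 on the log2 scale, and in KO-labelled cells 8 rose and 1 fell. Of all tested genes 24.0% fell in WT-labelled cells, and 19.8% rose and 17.9% fell in KO-labelled cells. MCM2 to MCM7 form the ring. Their summed level was 632 and 614 FPKM in KO-labelled cells with SET siRNA against 559 and 520 with control siRNA, and 401, 404 and 429 in WT-labelled cells with SET siRNA against 624, 621 and 615 with control siRNA. The WT SET siRNA libraries thus held the lowest 3 sums of the 10. All 12 interactions were positive and called, beside 8.6% of all tested genes.

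MCM2, a ring subunit that also binds histones, was at 94.0 and 87.8 FPKM in KO-labelled cells with SET siRNA, against 82.4 and 70.6 with control siRNA. It was at 43.9, 43.4 and 47.4 FPKM in WT-labelled cells with SET siRNA, against 75.8, 72.1 and 74.1 with control siRNA. The WT SET siRNA libraries were well below all 7 others, and the interaction of 0.96 ± 0.10 was the largest of the helicase genes (adjusted p = 0.000543). MCM2 fell by 0.71 in WT-labelled cells (adjusted p = 1.88e-05). Its rise of 0.25 in KO-labelled cells (adjusted p = 0.03) lost its call without KO SET siRNA library 1 (0.167) or 2 (0.0544) or KO control library 2 (0.166), where the value was 0.20, 0.30 and 0.14. It was also lost with no filter (0.0754) and with only the KO libraries (0.121).

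MCM5 was at 106 and 98.7 FPKM in KO-labelled cells with SET siRNA against 98.6 and 80.7 with control siRNA, and at 59.9, 57.4 and 62.9 in WT-labelled cells with SET siRNA against 104, 97.5 and 99.9 with control siRNA. Its KO control libraries were far apart, and its KO change of 0.19 ± 0.09 was not called (adjusted p = 0.111), while it fell by 0.73 in WT-labelled cells (adjusted p = 3.62e-05). MCM3 and MCM4 fell by 0.73 and 0.80 and MCM6 by 0.54 in WT-labelled cells. In KO-labelled cells the changes of MCM3, MCM4 and MCM6 were 0.17, 0.04 and 0.16. MCM4 was not called there (adjusted p = 0.586). The MCM3 rise (adjusted p = 0.0331) lost its call without KO SET siRNA library 1 (0.146) or 2 (0.0913), KO control library 2 (0.124), WT SET siRNA library 2 (0.0523) or WT control library 2 (0.0515), and was 0.11 after quantile normalization (0.129). The MCM6 rise (adjusted p = 0.0447) lost its call without KO SET siRNA library 1 (0.0849) or 2 (0.21), KO control library 1 (0.163), any WT SET siRNA library (0.0555 to 0.0633) or WT control library 2 (0.0578) or 3 (0.06).

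MCM7, the ring subunit with the highest level in every library, also differed between the lines without SET siRNA. It was at 170 and 163 FPKM in KO-labelled cells with SET siRNA against 139 and 126 with control siRNA, and at 160, 159 and 169 in WT-labelled cells with SET siRNA against 212, 211 and 200 with control siRNA. KO control libraries were the lowest and WT control libraries the highest of the 4 groups. MCM7 rose by 0.33 in KO-labelled cells (adjusted p = 0.00249) and fell by 0.35 in WT-labelled cells (adjusted p = 0.000262). The highest subunit, MCM7, exceeded the lowest, MCM6, 3.61 and 3.32 times in KO-labelled cells with SET siRNA, 3.35 and 2.86 times with control siRNA, and 5.05 to 6.3 times in WT-labelled cells. FPKM is scaled by length, so levels of different genes are set side by side here, but other biases between genes were not assessed. The files place MCM7 on chromosome 7, 99690404 to 99699427, where it overlaps AP4M1 by 298 bases, and AP4M1 was at most 16.4 FPKM.

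MCM10, which helps start the helicase, was at 33.8 and 36.2 FPKM in KO-labelled cells with SET siRNA against 27.5 and 29.9 with control siRNA. In WT-labelled cells it was at 17.3, 18.9 and 17.8 with SET siRNA against 26.8, 29.2 and 30.6 with control siRNA. It fell by 0.65 in WT-labelled cells (adjusted p = 2.81e-05), and the interaction was 0.93 ± 0.10 (adjusted p = 0.000572). Its rise of 0.28 in KO-labelled cells (adjusted p = 0.0174) lost its call without KO SET siRNA library 2 (0.109) or KO control library 1 (0.0764).

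CDC45, which joins MCM and GINS, rose by 0.29 in KO-labelled cells (adjusted p = 0.00142) and fell by 0.18 in WT-labelled cells (adjusted p = 0.00289). Its level was 87.9 ± 2.86 FPKM with SET siRNA and 71.8 ± 2.72 with control siRNA in KO-labelled cells (SD, n = 2 each), and 57.4 ± 0.698 and 65.4 ± 1.35 in WT-labelled cells (n = 3 each). The responses were opposite in sign, and both calls were kept in all 18 alternatives run.

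The 4 GINS genes encode 1 complex, but their responses differed. GINS1 fell in both lines. It was at 12.6 and 14.2 FPKM in KO-labelled cells with SET siRNA against 18.6 and 19.2 with control siRNA, and at 8.58, 9.51 and 8.12 in WT-labelled cells with SET siRNA against 16.9, 19.5 and 17.5 with control siRNA. No SET siRNA library overlapped its controls in either line. GINS1 changed by -0.47 ± 0.09 in KO-labelled cells (adjusted p = 0.00341) and by -0.96 ± 0.07 in WT-labelled cells (adjusted p = 8.18e-06), where it stood at 0.487 times the control level. The interaction of 0.49 (adjusted p = 0.0192) lost its call without KO SET siRNA library 2 (0.0757) and with no filter on low values (0.0532).

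GINS3 went the other way in KO-labelled cells, with the largest rise of the 37 members there, 0.49 ± 0.08 (adjusted p = 0.00136). Its levels were 19.4 and 20.0 FPKM with SET siRNA against 13.2 and 14.3 with control siRNA. In WT-labelled cells it was at 15.4, 15.6 and 16.8 with SET siRNA against 19.0, 17.0 and 19.9 with control siRNA. The WT groups barely separate, and the fall of 0.21 (adjusted p = 0.0191) lost its call without WT SET siRNA library 1 (0.0649) or 2 (0.0609) or WT control library 1 (0.0598) or 3 (0.0679). GINS2 fell by 0.52 and GINS4 by 0.20 in WT-labelled cells, with KO changes of 0.26 and 0.06. The GINS2 rise (adjusted p = 0.0189) lost its call without any 1 of the 4 KO libraries (0.0544 to 0.0836), and GINS4 was not called in KO-labelled cells (0.356). The GINS4 interaction of 0.26 (adjusted p = 0.0241) lost its call without KO SET siRNA library 1 (0.102) or 2 (0.0601), WT SET siRNA library 1 (0.0589) or 2 (0.0607) or WT control library 1 (0.0567).

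**Figure D3:**
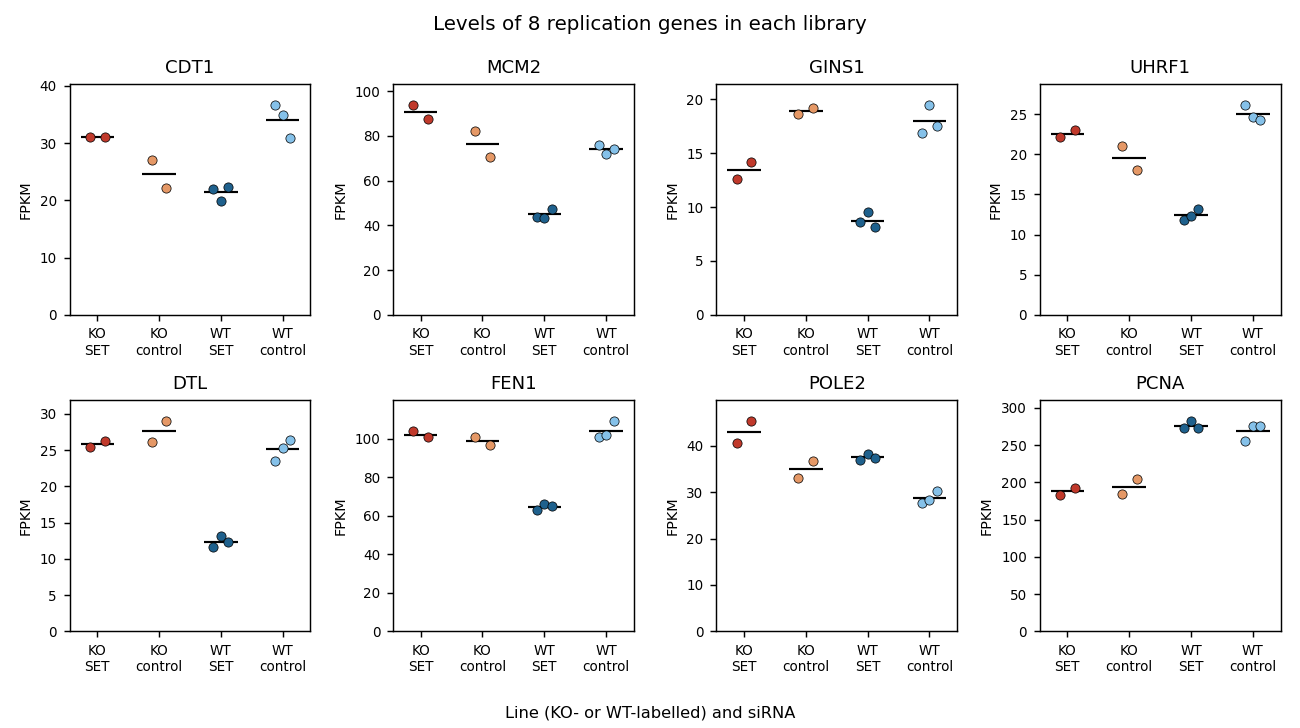
Each point is the FPKM of 1 library and each line a group mean, with the axis from 0, for CDT1, MCM2, GINS1, UHRF1, DTL, FEN1, POLE2 and PCNA. The WT-labelled SET siRNA mean is the lowest for CDT1, MCM2, GINS1, UHRF1, DTL and FEN1, its points for POLE2 lie above WT control, and those for PCNA overlap WT control.

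Of the 9 polymerase and clamp genes, 1 rose and 1 fell with SET siRNA in KO-labelled cells, 1 rose and 6 fell in WT-labelled cells, and 4 interactions were called. The KO shares, 11.1% each way, lay below the 19.8% and 17.9% of all tested genes, and the 66.7% that fell in WT-labelled cells stood beside 24.0%. The called interactions, all positive, were 44.4% beside 8.6%. FEN1, the nuclease that trims Okazaki fragments, had the largest interaction, 0.73 ± 0.07 (adjusted p = 0.000344). It was at 104 and 101 FPKM in KO-labelled cells with SET siRNA against 101 and 96.9 with control siRNA, and at 63.0, 66.2 and 64.9 in WT-labelled cells with SET siRNA against 101, 102 and 109 with control siRNA. The KO libraries and the WT controls lay between 96.9 and 109 FPKM, and the WT SET siRNA libraries far below them. FEN1 fell by 0.67 in WT-labelled cells (adjusted p = 2.81e-06).

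POLE2, the second subunit of leading-strand polymerase epsilon, was the only member that rose in WT-labelled cells. It was at 40.7 and 45.3 FPKM in KO-labelled cells with SET siRNA against 33.0 and 36.7 with control siRNA, and at 36.9, 38.3 and 37.3 in WT-labelled cells with SET siRNA against 27.6, 28.4 and 30.3 with control siRNA. SET siRNA libraries were above their controls in both lines. It rose by 0.29 ± 0.07 in KO-labelled cells (adjusted p = 0.0109) and by 0.37 ± 0.06 in WT-labelled cells (adjusted p = 0.00057), with an interaction of -0.08 ± 0.09 (adjusted p = 0.567). The KO call was lost without KO SET siRNA library 2 (0.0857) or KO control library 1 (0.0513), and the WT call was kept in all 18 alternatives run. 

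PCNA, the sliding clamp, was not called in either line. It was at 183 and 193 FPKM in KO-labelled cells with SET siRNA against 184 and 205 with control siRNA, and at 273, 282 and 273 in WT-labelled cells with SET siRNA against 255, 276 and 275 with control siRNA. Groups overlapped within each line. The change was -0.04 ± 0.06 in KO-labelled cells (adjusted p = 0.611) and 0.04 ± 0.05 in WT-labelled cells (adjusted p = 0.53). PCNA was the only member called lower in KO-labelled than in WT-labelled cells under both siRNAs. It is known as a gene that p53 can activate, and the part of p53 in that difference was not tested. PCNA stood at 4.21 and 4.13 times the median of the other 36 members in KO-labelled cells with SET siRNA, 4.37 and 4.63 times with control siRNA, 10.2 to 10.3 times in WT-labelled cells with SET siRNA and 6.99 to 8.13 times with control siRNA, so it stood furthest above the rest where the others were low. The files list PCNA-AS1, an antisense transcript of 384 bases inside the PCNA span, at up to 217 FPKM, and with no strand stated the reads of both cannot be told apart.

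The clamp loader subunits RFC3, RFC4 and RFC5 all fell in WT-labelled cells, by 0.38, 0.41 and 0.79. RFC5 fell in KO-labelled cells too. It was at 30.5 and 29.3 FPKM there with SET siRNA against 37.1 and 39.3 with control siRNA, and at 18.1, 19.0 and 18.4 in WT-labelled cells with SET siRNA against 31.4, 34.2 and 32.6 with control siRNA. The falls were 0.34 (adjusted p = 0.00149) and 0.79 (adjusted p = 1.73e-06), and the interaction was 0.45 ± 0.07 (adjusted p = 0.00417).

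RFC3 was at 37.4 and 38.9 FPKM in KO-labelled cells with SET siRNA against 33.8 and 38.7 with control siRNA, and at 23.5, 24.4 and 24.7 in WT-labelled cells with SET siRNA against 29.6, 33.6 and 32.4 with control siRNA. The KO groups overlapped and the WT groups did not. Its interaction of 0.46 (adjusted p = 0.0143) lost its call without KO SET siRNA library 2 (0.0577). The interaction of RFC4, 0.30 (adjusted p = 0.0399), lost its call when any library but KO control library 2 was left out (0.0501 to 0.119), after quantile normalization (0.0873), with no filter (0.0805) and with no trend (0.0553).

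PRIM1, the primase that starts each strand, and DSCC1, a subunit of an alternative clamp loader, fell by 0.35 and 0.46 in WT-labelled cells. Their KO changes were -0.12 (adjusted p = 0.196) and -0.18 (adjusted p = 0.0652), and neither interaction was called (adjusted p = 0.107 and 0.0558). POLA1, the catalytic subunit of polymerase alpha, changed by 0.12 in KO-labelled cells (adjusted p = 0.141) and by -0.04 in WT-labelled cells (adjusted p = 0.461).

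Of the 4 nucleotide supply genes, 2 rose in KO-labelled cells and 3 fell in WT-labelled cells. Of all tested genes 19.8% rose in KO-labelled cells and 24.0% fell in WT-labelled cells. The median change of the 4 in WT-labelled cells was -0.15, beside -0.60 for the helicase. Ribonucleotide reductase joins a large subunit, RRM1, with a small one, RRM2, to make deoxynucleotides. RRM1 was at 96.5 and 97.6 FPKM in KO-labelled cells with SET siRNA against 80.4 and 86.8 with control siRNA, and at 75.4, 83.2 and 76.5 in WT-labelled cells with SET siRNA against 72.0, 75.7 and 75.7 with control siRNA. The KO groups were apart and the WT groups overlapped. RRM1 rose by 0.21 in KO-labelled cells (adjusted p = 0.0212), and its WT change was 0.07 (adjusted p = 0.247). The KO call was lost without KO SET siRNA library 1 (0.0789) or 2 (0.0936) or KO control library 1 (0.0888), and the interaction of 0.14 was not called (adjusted p = 0.217).

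RRM2 was at 125 and 129 FPKM in KO-labelled cells with SET siRNA against 104 and 111 with control siRNA, and at 83.3, 85.5 and 80.6 in WT-labelled cells with SET siRNA against 91.4, 97.6 and 92.9 with control siRNA. It rose in one line and fell in the other, by 0.24 (adjusted p = 0.00785) in KO-labelled cells and by 0.17 (adjusted p = 0.00775) in WT-labelled cells. The interaction was 0.41 ± 0.07 (adjusted p = 0.0053). The KO rise lost its call without KO SET siRNA library 2 (0.0561). The ratio of RRM1 to RRM2 was 0.773 and 0.758 in KO-labelled cells with SET siRNA and 0.773 and 0.782 with control siRNA. In WT-labelled cells the ratio was 0.904, 0.973 and 0.949 with SET siRNA and 0.788, 0.776 and 0.815 with control siRNA, where the groups did not overlap.

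RRM2B, the p53-inducible small subunit of the same enzyme and not 1 of the 37, showed the opposite order. It was at 13.4 and 14.0 FPKM in KO-labelled cells with SET siRNA against 13.2 and 16.0 with control siRNA, and at 156, 157 and 143 in WT-labelled cells with SET siRNA against 61.5, 68.7 and 64.7 with control siRNA. KO groups overlapped, and every WT SET siRNA library was above every WT control library, with means 2.34 times apart. RRM2B rose by 1.21 ± 0.07 in WT-labelled cells (adjusted p = 2.02e-06), and its KO change was -0.09 (adjusted p = 0.465). RRM2B equalled 10.7 and 10.8% of RRM2 in KO-labelled cells with SET siRNA and 12.7 and 14.4% with control siRNA. It equalled 187, 183 and 178% of RRM2 in WT-labelled cells with SET siRNA and 67.2, 70.4 and 69.6% with control siRNA, so the rank of the small subunits turned between those groups.

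TK1, the S-phase thymidine kinase, was at 153 and 145 FPKM in KO-labelled cells with SET siRNA against 139 and 115 with control siRNA, and at 125, 120 and 126 in WT-labelled cells with SET siRNA against 186, 183 and 161 with control siRNA. It fell by 0.51 in WT-labelled cells (adjusted p = 0.000454), and the KO change of 0.23 was not called (adjusted p = 0.0803). The interaction was 0.74 ± 0.12 (adjusted p = 0.00476). TYMS, thymidylate synthase, had the highest level of the 37, 307 to 369 FPKM over all 10 libraries, and moved little. Its fall of 0.12 in WT-labelled cells (adjusted p = 0.026) lost its call without any 1 of the WT SET siRNA libraries or WT control library 2 or 3 (0.0507 to 0.0776). TYMS overlaps ENOSF1 by 3176 bases in the files, and ENOSF1 was at most 5.48 FPKM. It also overlaps C18orf56 by 737 bases, and C18orf56 was at most 12.3 FPKM.

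**Figure D4:**
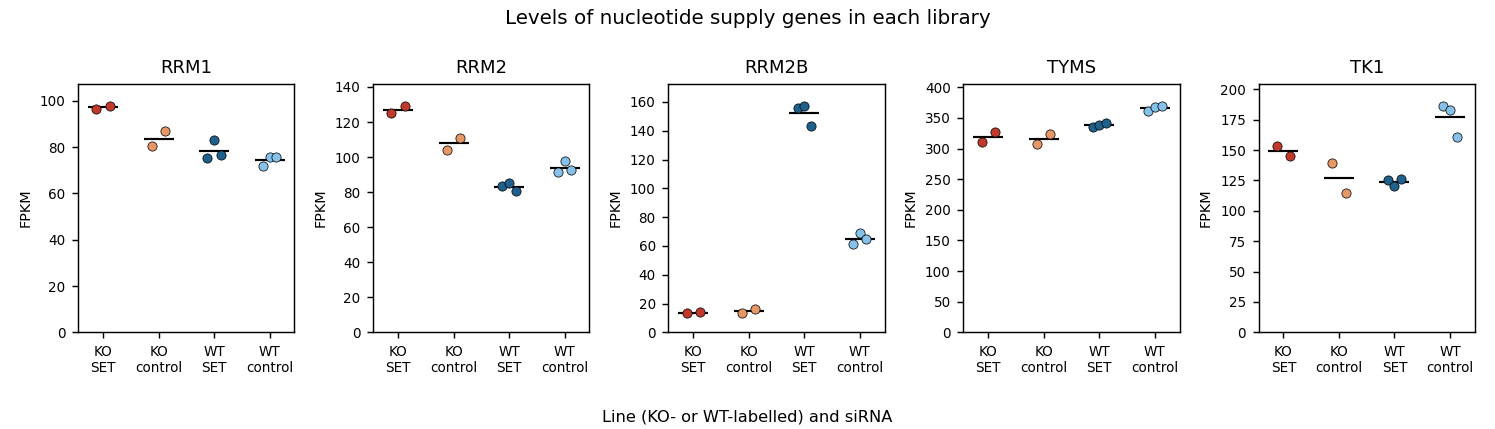
Points are single libraries and lines group means in FPKM, with the axis from 0, for RRM1, RRM2, RRM2B, TYMS and TK1. RRM2B is at most 16.0 FPKM in all 4 KO-labelled libraries and above RRM2 in each WT-labelled SET siRNA library.

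The remaining 8 members act at the fork, on new chromatin or on the cell cycle. In WT-labelled cells 7 of them fell, beside 24.0% of all tested genes. All 8 interactions were positive and called, beside 8.6%. UHRF1, which carries DNA methylation to the new strand, had the largest interaction of the 37 members, 1.16 ± 0.10 (adjusted p = 0.000271). It was at 22.2 and 23.0 FPKM in KO-labelled cells with SET siRNA against 21.0 and 18.1 with control siRNA, and at 11.8, 12.3 and 13.2 in WT-labelled cells with SET siRNA against 26.2, 24.6 and 24.3 with control siRNA. WT SET siRNA libraries stood at 0.497 times the control mean, below all others. UHRF1 fell by 0.95 ± 0.06 in WT-labelled cells (adjusted p = 3.69e-06), and its KO change was 0.21 (adjusted p = 0.0623).

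DTL, the adaptor of a ubiquitin ligase that destroys CDT1 in S phase, was at 25.5 and 26.2 FPKM in KO-labelled cells with SET siRNA against 26.1 and 29.0 with control siRNA. It was at 11.6, 13.2 and 12.4 in WT-labelled cells with SET siRNA against 23.5, 25.3 and 26.4 with control siRNA. KO groups overlapped, while the WT SET siRNA mean was 0.495 times that of controls. DTL fell by 0.96 ± 0.06 in WT-labelled cells (adjusted p = 3.49e-06), its KO change was -0.09 (adjusted p = 0.405), and the interaction was 0.87 ± 0.10 (adjusted p = 0.000924). The pseudogene RPL21P28, listed at up to 400.0 FPKM, lies inside the DTL span.

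CHAF1A, the large subunit of the chromatin assembly factor that places histones behind the fork, was at 25.8 and 24.7 FPKM in KO-labelled cells with SET siRNA against 24.5 and 22.6 with control siRNA. In WT-labelled cells it was at 12.6, 13.2 and 13.4 with SET siRNA against 23.0, 22.5 and 21.5 with control siRNA. The groups were separate in both lines, but the KO change of 0.10 was not called (adjusted p = 0.225). CHAF1A fell by 0.73 in WT-labelled cells (adjusted p = 3.79e-06), and the interaction was 0.83 ± 0.08 (adjusted p = 0.000347). CHAF1B, its partner, fell by 0.47 in WT-labelled cells, CLSPN, the checkpoint mediator claspin, by 0.54, and SLBP, which binds histone mRNA stem-loops, by 0.50. KO changes of CHAF1B, CLSPN and SLBP were 0.06, 0.14 and 0.12, with adjusted p from 0.0803 to 0.506.

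CDC25A, the phosphatase that activates S-phase kinases, was at 22.3 and 22.2 FPKM in KO-labelled cells with SET siRNA against 17.1 and 18.6 with control siRNA. In WT-labelled cells it was at 10.5, 10.7 and 10.4 with SET siRNA against 15.1, 16.0 and 15.6 with control siRNA. Both lines had separate groups, in opposite directions. CDC25A rose by 0.31 in KO-labelled cells (adjusted p = 0.00247) and fell by 0.52 in WT-labelled cells (adjusted p = 1.69e-05). TIPIN, which holds the fork together with TIMELESS, rose by 0.38 in KO-labelled cells (adjusted p = 0.0018), and its WT change was -0.13 (adjusted p = 0.0524). SCARNA14, an entry of 137 bases inside the TIPIN span, was listed at up to 24.8 FPKM, where TIPIN was at most 34.1. Of the 15 rises in KO-labelled cells, those of MCM7, CDC45, GINS3, TIPIN and CDC25A were kept in all 18 alternatives run. The other 10 lost their call when at least 1 library was left out. In a fit on only the 4 KO libraries 6 of the 37 rose, where 10.8% of all tested genes did. Without KO SET siRNA library 1 or 2, which leaves a single library in that group, the median change of the members was 0.14 and 0.13. The spread then rests on fewer KO libraries and is shared with the other groups. The number of falls was 4 without KO control library 1.

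Set beside each other with SET siRNA, KO-labelled cells held more of most replication transcripts than WT-labelled cells. Under SET siRNA 34 of the 37 were higher and 1 lower in KO-labelled cells, where 23.6% and 24.8% of all tested genes were. The median difference was 0.65, from -0.55 for PCNA to 1.01 for DTL, and KO libraries lay above every WT library for 34 members, where 34.7% of tested genes did so. CDC25A was 2.11 times, DTL 2.09 times and MCM2 2.02 times as high in KO-labelled cells. MCM7 and TYMS were not called, at 0.03 (adjusted p = 0.641) and -0.08 (adjusted p = 0.129). Of the 34, POLE2, TK1 and GINS3 lost their call in some fits. Without KO SET siRNA library 2 their adjusted p was 0.29, 0.065 and 0.0601, with POLE2 at 0.11 in place of 0.19, and TK1 had 0.159 without KO SET siRNA library 1. POLE2 and TK1 also lost their calls without any 1 of the WT SET siRNA libraries (0.051 to 0.0937), and POLE2 without WT control library 2 (0.053).

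Fewer members differed under control siRNA. With it 13 members were higher and 8 lower in KO-labelled cells, 35.1% and 21.6% beside 25.7% and 22.2% of all tested genes. The lower share lay near that of all tested genes, so it is not particular to the members. The median difference was 0.07, beside 0.02 over all tested genes. Those lower were MCM7 (-0.65), TK1 (-0.47), CDT1 (-0.46), PCNA (-0.46), GINS3 (-0.41), GINS2 (-0.38), UHRF1 (-0.34) and TYMS (-0.22), and all 8 calls were kept in the 18 alternatives run. Those higher were led by DSCC1 (0.52), ORC6 (0.43), PRIM1 (0.40), CHAF1B (0.39) and POLA1 (0.35). The count of higher members was 6 without KO control library 2, and the calls of CDC45, POLE2, RFC4, RFC5, RRM1, RRM2, SLBP and CDC25A were lost on leaving out some library. Both comparisons of the lines use the same libraries as the responses to siRNA, so they are not independent of them.

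The position of a gene went with some of these differences between the lines. This was looked at after the values were seen, as the median KO-labelled minus WT-labelled difference with control siRNA over the other tested genes within 1 Mb of a member. Around MCM7 on chromosome 7 the median was -0.52 over 58 genes, of which 46 were lower in KO-labelled cells. Around CDT1, GINS3 and GINS2 on chromosome 16 the medians were -0.53, -0.58 and -0.25 over 28, 22 and 10 genes, of which 23, 19 and 7 were lower. Around TK1 on chromosome 17 the median was -0.33 over 19 genes, 10 of them lower. None of the neighbours of these 5 genes was called higher. UHRF1, PCNA and TYMS had neighbours with medians of -0.14, -0.12 and 0.03. Of these neighbours 10 of 38, 6 of 14 and 3 of 9 were lower, and 1, 1 and 2 were higher. Among members that were higher, ORC6 on chromosome 16 had 8 neighbours with a median of 0.57, 7 of them higher, and CHAF1B on chromosome 21 had 11 with a median of 0.33, 10 of them higher. DSCC1 and RRM2 had neighbours with medians of 0.30 and 0.24. The neighbours of the other 9 higher members had medians from -0.13 for CDC25A to 0.08 for POLA1 and POLE2, and those of PRIM1, 66 genes, had a median of -0.02 with 19 lower and 15 higher. The 16 members not called had neighbours with medians from -0.18 for CHAF1A to 0.19 for MCM4 and MCM6. CHAF1A itself differed by 0.07, with 14 of its 40 neighbours lower, and DTL by 0.13, with 10 of 21 higher. The part of copy number in the differences between the lines was not tested.

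**Figure D5:**
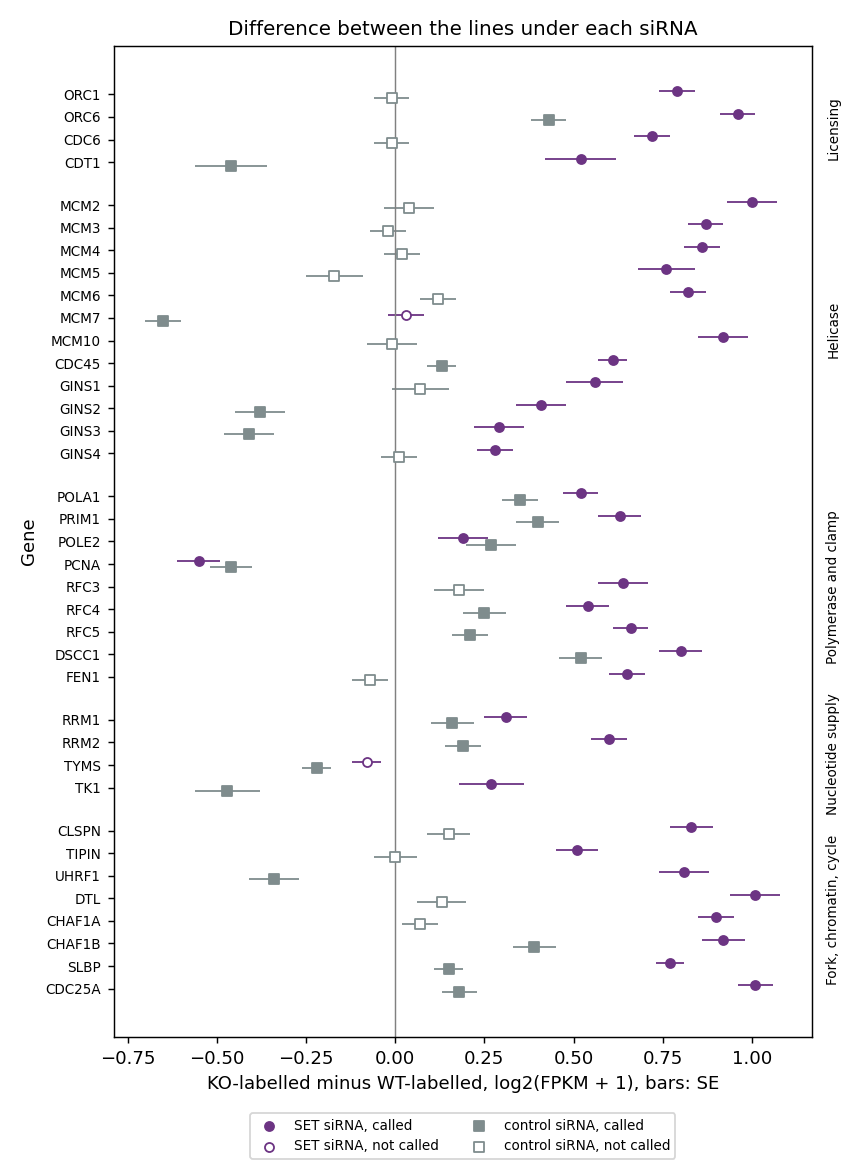
Points give KO-labelled minus WT-labelled log2(FPKM + 1) for each gene, circles with SET siRNA and squares with control siRNA, with bars of 1 SE and filled symbols where limma called the difference. Circles lie right of 0 except those of PCNA and TYMS, with MCM7 at 0.03, and squares scatter on both sides.

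Beyond the 37 members, 76 other genes of the pathway were listed by role, and all 76 passed the filter. In KO-labelled cells 18 of them rose and 12 fell with SET siRNA, and in WT-labelled cells 11 rose and 43 fell. These are 23.7% and 15.8% in KO-labelled cells, near the 19.8% and 17.9% of all tested genes, and 14.5% and 56.6% in WT-labelled cells, beside 30.8% and 24.0%. Interactions were positive and called for 29 and negative for 2, 38.2% and 2.63% beside 8.6% and 10.5% of all tested genes. All 8 genes of origin firing fell in WT-labelled cells, where 4 of them fell and 1 rose in KO-labelled cells. CDC7, the kinase that fires origins, averaged 11.1 ± 0.896 FPKM with SET siRNA against 17.8 ± 3.13 with control siRNA in KO-labelled cells (SD, n = 2 each), and 7.29 ± 0.385 against 15.4 ± 1.29 in WT-labelled cells (n = 3 each). Its falls were 0.64 (adjusted p = 0.00263) and 0.99 (adjusted p = 3.11e-05), and the interaction of 0.35 was not called (adjusted p = 0.125). C15orf42, the gene of the firing factor treslin, rose by 0.32 in KO-labelled cells and fell by 0.35 in WT-labelled cells, with an interaction of 0.67 (adjusted p = 0.000777).

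Of 8 further licensing genes, 1 rose and 3 fell in WT-labelled cells, 12.5% and 37.5% beside 30.8% and 24.0% of all tested genes. MCMBP, which binds the MCM ring, fell by 0.44 (adjusted p = 9.09e-05), and ORC3 rose by 0.21 (adjusted p = 0.0273), a call lost without WT SET siRNA library 1 (0.0514) or 2 (0.101) or WT control library 1 (0.0924) or 3 (0.0568). Of 23 further polymerase and clamp genes, 1 rose and 13 fell in WT-labelled cells, 4.35% and 56.5% beside those same shares. Their 10 interactions that were positive and called were 43.5%, beside 8.6% of all tested genes. POLD4, the smallest subunit of polymerase delta, rose by 0.38 (adjusted p = 0.00629), and RNASEH2A, a subunit of ribonuclease H2, fell by 0.63 (adjusted p = 5.16e-05). CHTF18, of the same alternative clamp loader as DSCC1, had the largest interaction of these, 0.63 (adjusted p = 0.0301). That call was lost without KO SET siRNA library 1 (0.0746) or 2 (0.0974), KO control library 2 (0.0906), WT SET siRNA library 1 (0.057) or 2 (0.0676) or WT control library 1 (0.056) or 2 (0.0535), and with no filter (0.0927).

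Of 28 further nucleotide supply genes, in KO-labelled cells 11 rose and 4 fell, 39.3% and 14.3% beside 19.8% and 17.9% of all tested genes. In WT-labelled cells 8 rose and 13 fell, 28.6% and 46.4% beside 30.8% and 24.0%. DCTPP1, which removes modified dCTP, had the largest positive interaction, 0.83 (adjusted p = 0.000841), and RRM2B the largest negative one, -1.30 (adjusted p = 0.000288). The other negative one was that of MTHFD2, a mitochondrial folate enzyme, at -0.32 (adjusted p = 0.0104), named after its value was seen. PPAT, the first enzyme of purine synthesis, fell in both lines, by 0.32 (adjusted p = 0.00559, and -0.21 without KO control library 2) in KO-labelled cells and 0.75 (adjusted p = 6.99e-06) in WT-labelled cells. Of 9 fork and chromatin genes, 1 rose and 6 fell in WT-labelled cells, 11.1% and 66.7% beside 30.8% and 24.0% of all tested genes. TOP1, topoisomerase I, rose by 0.33 (adjusted p = 0.00563) in KO-labelled cells and 0.21 (adjusted p = 0.0123) in WT-labelled cells, and the maintenance methyltransferase DNMT1 rose by 0.21 (adjusted p = 0.00726) in KO-labelled cells and fell by 0.36 (adjusted p = 5.85e-05) in WT-labelled cells. ASF1B, a histone chaperone, fell by 0.47 in WT-labelled cells (adjusted p = 0.000547). The KO calls of PPAT, TOP1 and DNMT1 were lost in a fit on only the KO libraries (adjusted p = 0.0648, 0.0628 and 0.096).

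CDKN1A, which encodes p21, was measured beside these genes. It averaged 19.4 ± 0.111 FPKM with SET siRNA and 6.67 ± 0.231 with control siRNA in KO-labelled cells (SD, n = 2 each), and 720 ± 21.2 and 162 ± 8.42 in WT-labelled cells (n = 3 each). It rose in both lines, by 1.41 (limma adjusted p = 1.91e-06) in KO-labelled cells and 2.15 (adjusted p = 1.87e-08) in WT-labelled cells. The group with the highest CDKN1A was the one with the lowest level of 31 of the 37 members, and the part of CDKN1A in those levels was not tested.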

How the data were processed

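RNA of 10 libraries was made into libraries with a TruSeq RNA kit, per the labels' protocols. The submitters' processing notes name bcl2fastq 1.8.4, TopHat2 2.0.4 and Cufflinks 2.0.2, and no genome build, annotation or strand setting is given in the sources used here. The authors deposited 1 table per library with gene-level FPKM and its interval, so depth enters only through that interval. FPKM is scaled to each library, so the values are relative levels.

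Groups were taken from the sample titles. Genes with at least 1 FPKM in at least 2 libraries were tested as log2(FPKM + 1), which understates the change of low genes, in 1 limma 3.58.1 fit (R 4.3.3, eBayes with trend) of the 4 groups. The 5 contrasts were the response to SET siRNA in KO-labelled cells, that in WT-labelled cells, the interaction (KO response minus WT response), and the KO minus WT difference with SET and with control siRNA. P-values were Benjamini-Hochberg adjusted over 14813 genes within a contrast and called below 0.05. The method was tested on simulated data. Tables, promoter matches and plots used Python 3.11.15, pandas 2.3.3, numpy 2.4.6 and matplotlib 3.10.9. Positions of genes are those of the files, counted from 1, and promoter windows are RefSeq's on GRCh38.p14.

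The members and lists were chosen with earlier results of these data known. Members given in every library were the 3 with the largest interaction in each subclass, any called against the direction of most of its subclass, PCNA, RRM1 and RRM2, while others were added after their values were seen. Other genes of the pathway were named by the largest called rise and fall per role. Alternatives were another pseudocount, no filter or a mean of at least 5 FPKM, median-of-ratios or quantile scaling, a fit on only the groups compared, no trend, a replicate block, and each library left out.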

Additional observations from a re-analysis of the deposited data

Results flagged for a closer look

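The KO-labelled and WT-labelled responses to SET siRNA were apart for 30 of the 37 replication genes by limma's test of the difference itself. Each difference, KO-labelled response minus WT-labelled response, was positive. For GINS1 and RFC5 this was a smaller fall in KO-labelled cells. The differences, on the scale of log2(FPKM + 1), were 0.79 for ORC1, 0.53 for ORC6, 0.73 for CDC6 and 0.98 for CDT1 among licensing genes. In the MCM ring and its helpers they were 0.96 for MCM2, 0.90 for MCM3, 0.84 for MCM4, 0.93 for MCM5, 0.70 for MCM6, 0.68 for MCM7, 0.93 for MCM10 and 0.47 for CDC45, and in the GINS complex 0.49 for GINS1, 0.79 for GINS2, 0.70 for GINS3 and 0.26 for GINS4. Among polymerase and clamp genes they were 0.46 for RFC3, 0.30 for RFC4, 0.45 for RFC5 and 0.73 for FEN1, and among nucleotide supply genes 0.41 for RRM2 and 0.74 for TK1. At the fork, on chromatin and in the cell cycle they were 0.68 for CLSPN, 0.51 for TIPIN, 1.16 for UHRF1, 0.87 for DTL, 0.83 for CHAF1A, 0.53 for CHAF1B, 0.62 for SLBP and 0.83 for CDC25A. The calls of GINS1, GINS4, RFC3 and RFC4 were lost when a single library was left out, with adjusted p of 0.0757, 0.0601, 0.0577 and 0.119 without KO SET siRNA library 2.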

How the results depend on the processing

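None of the called values given alternatives changed sign in any of them, and MTHFD2 was given none. Of the members called, 30 of 32 falls with SET siRNA in WT-labelled cells, 26 of 30 interactions, 31 of 34 higher and 1 of 1 lower between the lines under SET siRNA, and 8 of 8 lower under control siRNA kept their call throughout. Of the rises in KO-labelled cells 5 of 15 did, and of the higher members under control siRNA 5 of 13. Rises in KO-labelled cells numbered 6 with only the libraries compared and 5 to 15 when each library was left out, and falls there 2 to 4. Under control siRNA 6 to 15 members were higher in KO-labelled cells with a library left out. Falls in WT-labelled cells numbered 30 to 32 and interactions 26 to 31 with a library left out. Over all tested genes the interaction was called positive for 1274 and negative for 1557, against 523 and 620 without KO SET siRNA library 1, 643 and 823 without KO SET siRNA library 2, 2151 and 2438 without KO control library 1 and 828 and 896 without KO control library 2, and the cause was not tested. With no filter on low values 907 and 1200 of 25593 entries were called. On only the libraries compared, 1595 genes (10.8%) rose and 1607 (10.8%) fell with SET siRNA in KO-labelled cells. In the fit of all libraries 2926 (19.8%) rose and 2645 (17.9%) fell. Of the 13 pairs of same-numbered libraries, the KO and WT control pairs deviated together with correlations of 0.217 and 0.228 and KO control 2 with WT SET siRNA 2 at 0.108, while the other pairs, those within a line included, lay between -0.083 and 0.073. Differently numbered pairs ran from -0.228 to 0.151. The 2 libraries of a KO group deviate from their mean as mirror images, so the values of such a pair are not separate. These values cannot settle whether the numbers pair samples, and the labels do not say, so the main fit used no pairs. A replicate block gave 16 rises and 2 falls in KO-labelled cells, 1 and 32 in WT-labelled cells, 31 positive interactions, 34 higher and 1 lower under SET siRNA, and 16 and 8 under control siRNA. With n = 2 per KO group, leaving out 1 leaves a single library whose spread is taken from the other groups.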
